A study of Mus musculus with 12 samples.

Results

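The 9 transcripts described here encode subunits of SF3A and SF3B, the protein complexes of the U2 small nuclear ribonucleoprotein (snRNP). They are Sf3b1, Sf3b2, Sf3b3, Sf3b4, Sf3b5 and Phf5a of SF3B and Sf3a1, Sf3a2 and Sf3a3 of SF3A, taken by gene symbol from 24411 genes listed in each library. All 9 were among the 13755 genes with enough counts to be tested. Poly(A) RNA came from bone marrow of femora and tibiae, gated as lineage-negative and cKit-positive, which keeps blood stem cells and progenitors. The study compared 4 donor genotypes with 3 libraries each: Mx1-Cre Sf3b1-K700E:Inv(3), called double here, Mx1-Cre Inv(3), Mx1-Cre Sf3b1-K700E, and Mx1-Cre alone as control. Sf3b1 K700E is a heterozygous lysine-to-glutamate change in the largest SF3B subunit, and the inv(3) allele carries a rearrangement that places a GATA2 enhancer beside EVI1 (Mecom in the mouse). Donor marrow was CD45.2+ on a C57BL/6 background and went, mixed with wild-type CD45.1+ support marrow, into lethally irradiated CD45.1+ recipients. All groups, control included, carried Mx1-Cre, a recombinase under an interferon-responsive promoter, and received 3 doses of pIpC at 20 mg/kg starting 4 weeks after transplantation. Cells were taken 6 months after pIpC. The labels do not say whether CD45.2+ cells were separated from the CD45.1+ ones, nor give ages. They also do not say whether a group's replicates are separate mice, so p-values measure the spread among these libraries.

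In the spliceosome, U2 snRNP pairs with the branch site of an intron, and SF3A and SF3B hold that pairing in place. SF3B1 forms a ring of HEAT repeats that closes around the branch helix, PHF5A completes the pocket for the branch adenosine, and SF3A bridges SF3B to the rest of the U2 particle. In human myeloid neoplasms, SF3B1 mutations in the HEAT repeats lead to use of cryptic 3′ splice sites, and K700E is the best known of them.

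Codon 700 of Sf3b1 lies in exon 15 of 25 on the minus strand of chromosome 1 (GRCm38, gene at chr1:54985169-55027501). The reference sequence around it, chr1:55000335-55000387, is shown because it is the base triplet that the allele changes. Capitals mark codon 700, AAA for lysine, at chr1:55000365-55000367. The sequence is that of the reference annotation, and the deposited gene tables hold no allele counts.

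Sf3b1 codon 700: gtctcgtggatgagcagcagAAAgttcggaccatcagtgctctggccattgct

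Total expected counts per library lay between 73074797 and 86555638, and a member had between 2105 and 58986 of them. All 12 listed stem and progenitor markers were detected. Their sums were 2870 to 2975 CPM (counts scaled to library size) in double, 2842 to 2915 CPM in inv(3), 2947 to 3055 CPM in Sf3b1 K700E, and 3035 to 3113 CPM in control. Single markers moved more than these sums (edgeR adjusted p under 0.05). In inv(3) against control 6 of 12 were lower and 1 higher (20.3% and 18.4% of all tested genes). In double against Sf3b1 K700E 7 were lower and 3 higher (23.5% and 25.7% of all tested genes). In double against inv(3) 1 was lower and 6 higher (9.13% and 13.4% of all tested genes). Other cells' transcripts moved with the genotypes: the 13 macrophage markers summed to 112 to 138 CPM in double, 105 to 180 CPM in inv(3), 591 to 806 CPM in Sf3b1 K700E, and 459.8 to 539.7 CPM in control (none at 0 in all libraries of a group). The 10 mature neutrophil markers summed to 2762 to 3968 CPM in double, 4673 to 5739 CPM in inv(3), 1206 to 2247 CPM in Sf3b1 K700E, and 1429 to 2109 in control. The 4 Y-linked genes read had 4 to 8 counts in inv(3) libraries and 19200 to 25380 in each of the other libraries, so in every comparison that uses inv(3), the presence of Y-linked RNA differs along with the genotype. Xist, transcribed from the inactive X chromosome, was at 23.2 to 40.5 CPM in double, 1794 to 2095 CPM in inv(3), 77.1 to 209.7 CPM in Sf3b1 K700E and 24.0 to 39.9 CPM in control. It was higher in Sf3b1 K700E than in control (edgeR adjusted p = 0.00701) and lower in double than in Sf3b1 K700E (edgeR adjusted p = 0.000258), so these comparisons differ in a sex-linked transcript too. The part of these differences in the results was not tested, and in bulk RNA fewer cells of a type and less RNA per cell cannot be told apart.

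All 9 subunit transcripts were abundant. Per length, in TPM (scaled by transcript length and library size), the order of mean levels over the 12 libraries was Sf3b2, Sf3b3, Sf3b1, Sf3a3, Sf3b5, Sf3a2, Sf3b4, Phf5a and Sf3a1. Sf3b2, whose protein touches the pre-mRNA beside the branch site, averaged 230 ± 7.92 TPM in double, 230 ± 3.82 in inv(3), 232 ± 9.54 in Sf3b1 K700E and 229 ± 6.95 in control (SD, n = 3 each). Sf3a1, the SF3A scaffold with a ubiquitin-like domain, was the lowest with 62.7 ± 1.81, 58.5 ± 2.34, 69.1 ± 3.32 and 65.7 ± 2.10 TPM in double, inv(3), Sf3b1 K700E and control (SD, n = 3 each). Neighbours in this order kept their places unevenly: Sf3b1 was above Sf3a3 in 12 of 12 libraries, while Sf3a3 was above Sf3b5 in 9 of 12. The summed TPM of the 9 was 1136 ± 33.9 in double, 1129 ± 40.2 in inv(3), 1238 ± 46.1 in Sf3b1 K700E and 1186 ± 38.8 in control (SD, n = 3 each). These sums were not tested, and TPM lacks the scaling by library composition that the tests use. Its factors were lowest for the inv(3) libraries (0.961, 0.949 and 0.964) and highest for the Sf3b1 K700E libraries (1.046, 1.06 and 1.04). In CPM with that scaling, Sf3a1 overlapped between these genotypes: inv(3) libraries had 176, 171 and 174, and Sf3b1 K700E libraries 193, 176 and 175.

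**Figure D1:**
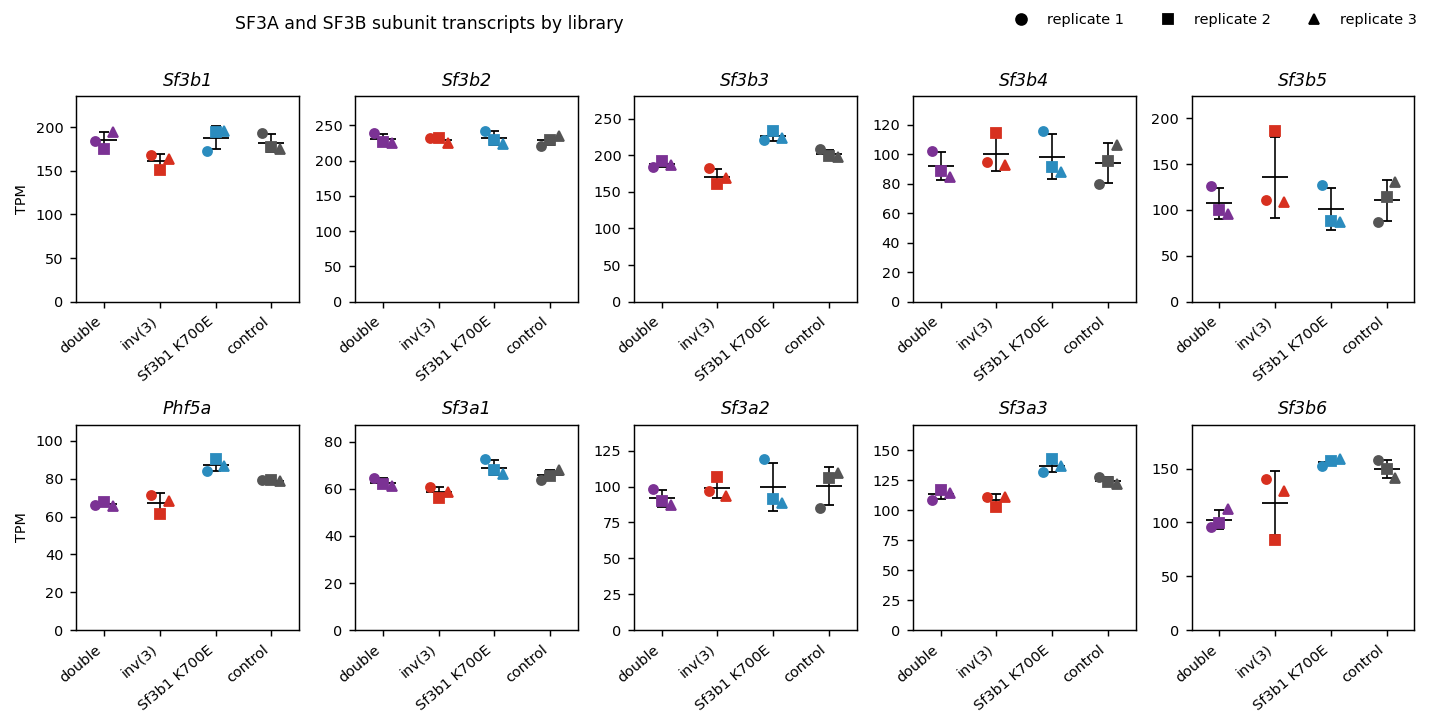
TPM (linear axis from 0) of the 9 subunit transcripts and Sf3b6 in each library, by genotype, with point shape giving the replicate and bars giving mean and SD of 3 libraries. Phf5a lies at 65.7 to 67.7 TPM in double, below the 78.8 to 79.2 TPM of control, and Sf3b5 spreads most, with 186 TPM in a single inv(3) library.

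Sf3b1 itself, the gene that carries the mutation, passed in no comparison of the 12-library edgeR fit. Its levels were 185, 175 and 194 TPM in double, 168, 151 and 163 in inv(3), 173, 194 and 196 in Sf3b1 K700E and 194, 177 and 176 in control. After scaling by library composition (TMM, which the tests use), the same libraries had 650.1, 630.4 and 688 CPM in double, 617, 586 and 614 in inv(3), 582, 638 and 656 in Sf3b1 K700E and 674, 620 and 609.7 in control. On the TPM scale the inv(3) libraries all lie below the control libraries, and on the CPM scale these ranges overlap, as do those of Sf3b1 K700E and control. In CPM the double libraries all lie above the inv(3) libraries. The log2 difference of Sf3b1 K700E from control was -0.02 ± 0.06 (SE, n = 3 per group), with a 95% interval of 0.906 to 1.07 for the fold, and edgeR's quasi-likelihood test gave an adjusted p of 0.848. A fall of Sf3b1 RNA below 0.906 of control, or a rise above 1.07, therefore lies outside that interval. Double differed from inv(3) by 0.12 ± 0.06 (edgeR adjusted p = 0.158) and from Sf3b1 K700E by 0.07 ± 0.06 (edgeR adjusted p = 0.315).

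Sf3b1 K700E alone was compared with control to ask whether the point mutation moved the other subunits. None of the 9 passed in edgeR, where 8.84% of all tested genes did (3.94% higher and 4.9% lower). At an unadjusted p under 0.05 there was 1, Sf3b3, limma-voom called 0 and DESeq2 called 1, again Sf3b3 (0.11, adjusted p = 0.0478). Sf3b3, a beta-propeller protein that braces the SF3B1 ring, had 511, 526 and 512 CPM in Sf3b1 K700E and 496, 477 and 470.2 CPM in control. The K700E libraries were all above the control libraries, but the log2 difference of 0.10 ± 0.04 did not pass in edgeR (SE, adjusted p = 0.145). Sf3b3, Phf5a and Sf3a3 were the 3 of 9 members whose groups did not overlap in CPM, against 33.5% of all tested genes, all higher in Sf3b1 K700E.

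The rearrangement by itself was read from inv(3) against control. Phf5a and Sf3b3 were lower in inv(3), so 2 of 9 members were called where 38.7% of all tested genes were (18.4% higher and 20.3% lower). Phf5a (chr15:81864516-81871892, GRCm38.p6) had 64.8, 58.2 and 63.1 CPM in inv(3), against 67.8, 68.0 and 67.2 CPM in control, and fell by 0.12 on the log2 scale (SE 0.04, edgeR adjusted p = 0.0386). Sf3b3 (chr8:110810491-110846806) had 459, 425 and 437 CPM in inv(3), against 496, 477 and 470.2 CPM in control, and fell by 0.13 (SE 0.04, edgeR adjusted p = 0.0289). In both genes each inv(3) library lay below each control library. The groups also did not overlap for Sf3b2, higher in inv(3), and Sf3a3, lower, which makes 4 of 9 against 51.8% of all tested genes. Neither of these passed: Sf3b2 differed by 0.12 ± 0.05 (edgeR adjusted p = 0.0572) and Sf3a3 by -0.09 ± 0.04 (edgeR adjusted p = 0.114). Sf3b2 passed by DESeq2 (adjusted p = 0.0231), with RLE scaling (0.0478), without the 100 most abundant genes (0.0398), and without Sf3b1 K700E 1 (0.0334) or Sf3b1 K700E 3 (0.0472). The calls of Phf5a and Sf3b3 are near the limit, since leaving out control 1, control 2, control 3, inv(3) 2 or inv(3) 3 ended both, as did the compared groups alone (adjusted p of 0.0909 for Phf5a and 0.075 for Sf3b3). Adjusted p rose to 0.163 for Phf5a and 0.105 for Sf3b3 without inv(3) 2. Leaving out Sf3b1 K700E 3 left Phf5a at 0.0694 and Sf3b3 at 0.0547, and Phf5a also ended without Sf3b1 K700E 2 (0.0619) or double 3 (0.0505).

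Cells with both alleles were compared with control next. Phf5a was the 1 member of 9 called, against 41.1% of all tested genes (20.8% higher and 20.4% lower). It had 57.3, 59.9 and 57.2 CPM in double, against 67.8, 68.0 and 67.2 CPM in control, with no overlap. It fell by 0.22 on the log2 scale (SE 0.04), a fold of 0.859 with a 95% interval of 0.804 to 0.917 and an edgeR adjusted p of 0.00175. Sf3a3, a zinc-finger protein of SF3A, was the other member without overlap, which makes 2 of 9 where 54.8% of all tested genes had none. Its difference was -0.10 ± 0.04 (edgeR adjusted p = 0.0732), and it passed without double 2 (-0.14, adjusted p = 0.0311) and by DESeq2 (-0.11, adjusted p = 0.0473). In the same comparison 12 of 18 proliferation markers were lower and 0 higher (5346 to 5700 CPM summed in double, 6068 to 6199 CPM in control), and 11 of 12 erythroid markers were lower and 1 higher (316.5 to 338 CPM summed in double, 647 to 729 CPM in control). Their part in the Phf5a level was not tested.

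Double was set against Sf3b1 K700E for the effect of inv(3) on the mutant background, and here 3 subunits fell. Phf5a, Sf3a3 and Sf3b3 made 3 of 9 called, where 49.2% of all tested genes were (25.7% higher and 23.5% lower), and the same 3 were without overlap, against 57.7%. Phf5a had 57.3, 59.9 and 57.2 CPM in double and 70.0, 72.9 and 71.4 CPM in Sf3b1 K700E, a fall of 0.30 on the log2 scale (SE 0.04, fold 0.814, edgeR adjusted p = 0.000161). Sf3a3 (chr4:124714861-124732423) had 97.2, 106.8 and 103 CPM in double and 113, 119 and 116 CPM in Sf3b1 K700E, a fall of 0.18 (SE 0.04, fold 0.881, edgeR adjusted p = 0.00426). Sf3b3 had 446, 474 and 453 CPM in double and 511, 526 and 512 CPM in Sf3b1 K700E, a fall of 0.17 (SE 0.04, fold 0.886, edgeR adjusted p = 0.00417). In each of the 3 genes every double library lay below every Sf3b1 K700E library. Proliferation markers moved in the same comparison: 9 of 18 were lower and 0 higher, where 23.5% of all tested genes were lower, and their sum was 5346 to 5700 CPM in double and 5980 to 6146 in Sf3b1 K700E. Other lists moved further: 13 of 13 macrophage and 12 of 12 erythroid markers were lower. Their median log2 changes were -2.88 and -2.80, against -0.15 for the proliferation markers. Of the mast cell, basophil and eosinophil markers 9 of 10 were lower and 0 higher, and 6 of 10 mature neutrophil markers were higher and 0 lower. The part of these differences in the subunit levels was not tested. Sf3b2 passed without Sf3b1 K700E 1, higher in double (0.12, edgeR adjusted p = 0.0387). Sf3b3 overlaps the start of Cog4 by 207 bases and Sf3a3 spans a pseudogene, and unstranded reads there cannot be assigned with certainty.

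Adding K700E to inv(3) moved no member past the limit. In double against inv(3), 0 of 9 were called in edgeR, 0 at an unadjusted p under 0.05 and 0 by DESeq2 and limma-voom, where edgeR called 22.6% of all tested genes (13.4% higher and 9.13% lower). Sf3b1, higher in double, and Sf3b2 and Sf3a2, lower, did not overlap between the groups, 3 of 9 against 39.4%. Phf5a differed by -0.09 ± 0.04 (SE, edgeR adjusted p = 0.141) and passed without inv(3) 2 (-0.14, adjusted p = 0.043). The interaction, which asks whether the alleles together differ from the sum of each, called 0 of 9 members in edgeR and by DESeq2 and limma-voom, where edgeR called 0.836% of all tested genes (0.4% higher and 0.436% lower). Phf5a was the 1 member at an unadjusted p under 0.05, with an interaction of -0.17 ± 0.06 (SE, edgeR adjusted p = 0.188). These comparisons share libraries, the control libraries among them, so their values are given side by side and not as separate evidence.

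**Figure D2:**
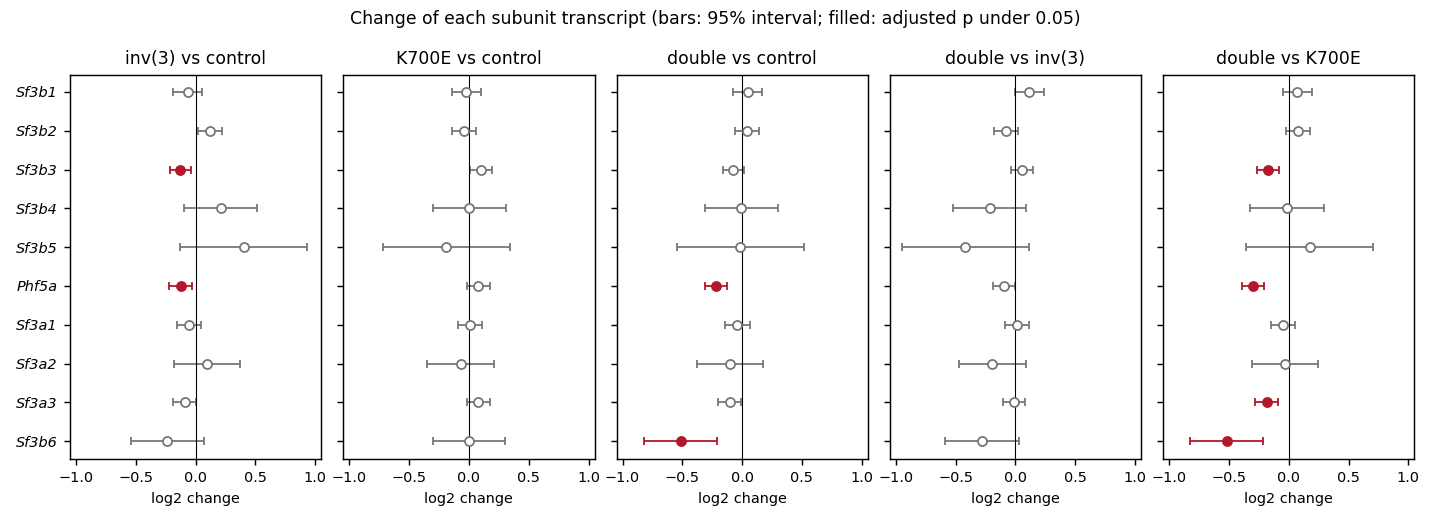
Log2 change (horizontal axis) of each subunit transcript and Sf3b6 in 5 comparisons from the edgeR fit of 12 libraries, with 95% intervals and filled points where the adjusted p was under 0.05. The filled member points are all below 0, and Phf5a is filled in inv(3) against control, double against control and double against Sf3b1 K700E.

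Sf3b6 encodes the SF3B protein p14 and is listed here with the U2-associated factors, not with the 9. It showed the largest log2 change of the SF3B genes read in double against control. It had 52.9, 56.5 and 62.7 CPM in double, against 86.5, 82.5 and 77.1 CPM in control, and 81.4, 50.8 and 76.7 CPM in inv(3). Double and control did not overlap, while inv(3) 2 lay with the double libraries and the other two inv(3) libraries with control. Sf3b6 fell by 0.52 on the log2 scale in double against control (SE 0.14, fold 0.700, edgeR adjusted p = 0.0119) and by 0.52 against Sf3b1 K700E (SE 0.14, edgeR adjusted p = 0.00958). It did not pass in inv(3) against control (-0.24 ± 0.14, edgeR adjusted p = 0.202). Double against inv(3) gave -0.28 ± 0.14 (edgeR adjusted p = 0.174), and without inv(3) 2 it passed (-0.47, adjusted p = 0.00274), as did the interaction (-0.47, adjusted p = 0.0474). Each passed in that setting alone, 1 of 22 and 1 of 21. Without inv(3) 1 the edgeR adjusted p was 0.445 for double against inv(3) and 0.715 for the interaction.

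The members differed widely in how far replicates lay apart. Sf3b5, a small protein between SF3B1 and SF3B3, had 41.9, 34.0 and 31.8 CPM in double, 38.5, 66.9 and 38.5 in inv(3), 40.7, 27.2 and 27.5 in Sf3b1 K700E and 28.4, 37.9 and 42.5 in control. A single inv(3) library and a single Sf3b1 K700E library stood above the rest of their groups, and the genotypes overlap. The within-group SD of log2 CPM was 0.337 for Sf3b5, 0.196 for Sf3b4, an RNA-binding partner of SF3B2, and 0.177 for Sf3a2, a zinc-finger protein of SF3A. These place at percentiles 99.2, 96.3 and 95 among the 5602 genes at least as abundant as the least abundant member. The other members lay between 0.043 for Sf3b3 and 0.07 for Sf3b1.

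Coding GC content divided the members in the same way. Sf3a2, Sf3b5 and Sf3b4 have 62.6%, 61.6% and 60.3% GC. Among tested genes with known coding GC and a mean of at least 2 CPM, they lie at percentiles 96.2, 94.3 and 90.8. The other 6 members have between 44.4% (Sf3b1) and 55.5% (Sf3b2). In the same set of genes, the 1064 most GC-rich shifted with Sf3a2, Sf3b5 and Sf3b4 in single libraries. The median deviation of those 1064 from the group mean was 0.11 in double 1, 0.13 in inv(3) 2, 0.17 in Sf3b1 K700E 1 and -0.16 in control 1 on the log2 scale. Sf3b5 deviated by 0.23, 0.53, 0.38 and -0.33 in those libraries. Sf3b6, at 42.7% GC, deviated by -0.11, -0.43, -0.01 and 0.08 in the same libraries, and the 1064 most GC-poor genes by a median of -0.02, -0.01, -0.09 and 0.08. With a GC offset per library, added after the data were seen, the called members were 3 in double against control (Phf5a, Sf3a3 and Sf3a2), where 48.4% of 13033 genes were called, and 1 in double against inv(3) (Phf5a), where 30.4% were. They were 6 in double against Sf3b1 K700E, where 55.7% were. In inv(3) against control they were 2, Sf3b3 and Sf3b2 (edgeR adjusted p = 0.0361), where 45.7% were, and Phf5a lost its call (edgeR adjusted p = 0.0647). Among those 6, Sf3b1 was higher in double (0.14, edgeR adjusted p = 0.00499), against 0.07 without the offset. Sf3a2 was lower at -0.16, against -0.03 without it. The offset was fitted on deviations from the mean of all 12 libraries. It therefore takes up GC-related differences between genotypes as well as those within groups.

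**Figure D3:**
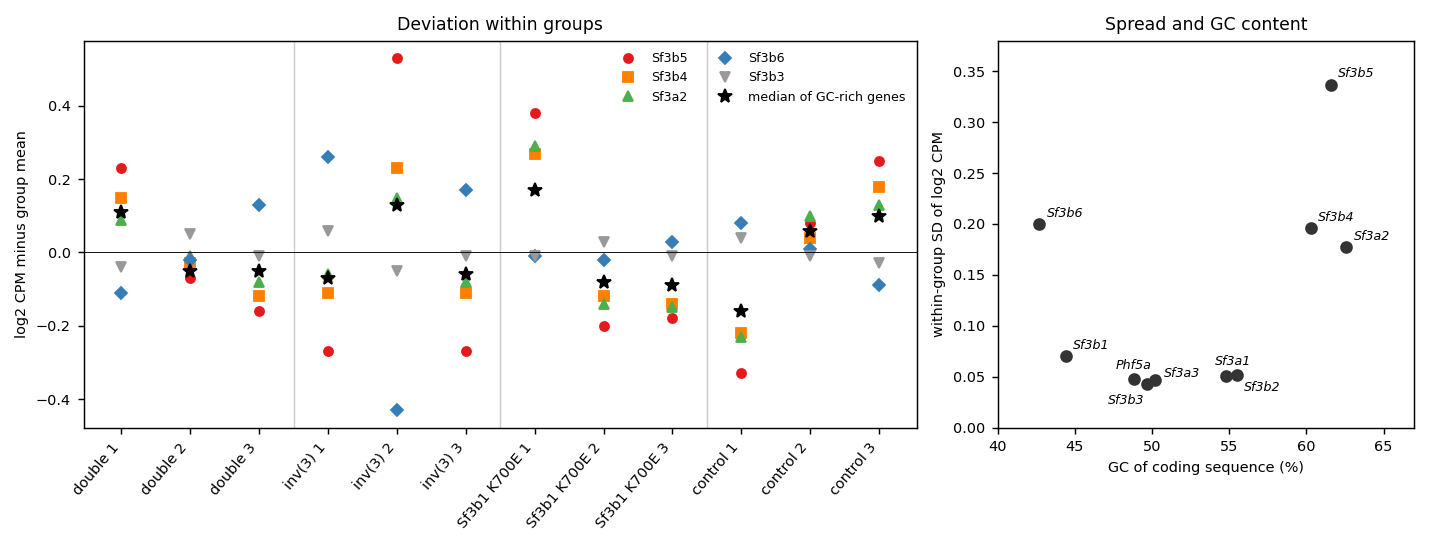
Left, log2 CPM minus the group mean in each library for 5 genes and, as stars, the median of the 1064 most GC-rich genes; right, within-group SD of log2 CPM against coding GC content (%) for the 9 members and Sf3b6. Sf3b5, Sf3b4 and Sf3a2 move with the stars and have SDs of 0.177 to 0.337, while members of lower GC lie between 0.043 and 0.07. Sf3b6, at 42.7% GC, has an SD of 0.2.

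Promoters are shown for members that fell together, Sf3b3 and Sf3a3, and for Sf3b1, which passed in no comparison without the GC offset. The promoter of Phf5a, which also fell in double against Sf3b1 K700E, was not available, nor were those of Sf3b4 and Sf3b5. The 250 bases before the table's start were read for the 6 members present in the RefSeq table (GRCm38.p6), and capitals mark CCGGAAG on either strand, the core of ETS-factor motifs. They lie at chr8:110846804-110847053 (minus strand) for Sf3b3, chr4:124714611-124714860 (plus strand) for Sf3a3 and chr1:55027479-55027728 (minus strand) for Sf3b1. The table's start lies inside the gene span given above for Sf3b1, by 23 bases, and for Sf3b3, by 3 bases.

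Sf3b3: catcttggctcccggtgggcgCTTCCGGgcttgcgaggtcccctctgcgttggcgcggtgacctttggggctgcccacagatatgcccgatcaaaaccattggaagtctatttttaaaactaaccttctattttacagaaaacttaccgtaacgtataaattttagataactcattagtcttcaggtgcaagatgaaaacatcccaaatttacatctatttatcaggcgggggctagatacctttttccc
Sf3a3: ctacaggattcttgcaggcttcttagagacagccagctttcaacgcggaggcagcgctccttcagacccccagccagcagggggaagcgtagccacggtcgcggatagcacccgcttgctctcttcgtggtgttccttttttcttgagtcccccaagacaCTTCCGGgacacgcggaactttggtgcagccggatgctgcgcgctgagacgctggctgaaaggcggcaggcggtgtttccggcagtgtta
Sf3b1: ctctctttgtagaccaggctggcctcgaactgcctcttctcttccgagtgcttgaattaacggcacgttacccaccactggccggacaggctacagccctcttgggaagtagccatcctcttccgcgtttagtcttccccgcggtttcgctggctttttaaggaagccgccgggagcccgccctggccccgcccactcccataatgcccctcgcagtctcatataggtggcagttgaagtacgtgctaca

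CCGGAAG was in 5 of the 6 member promoters (Sf3b2, Sf3b3, Sf3a1, Sf3a2 and Sf3a3), each read at its first listed start. It was in 6.91% of 32851 promoters of that length, which take every listed start whatever the level of its gene. CCAAT was in 2 of 6 and 33.8% of all, TATAAA in 1 of 6 and 12.4%, and AAGATGGCG in 0 of 6 and 0.606%, each on either strand. Among these 6, the CCGGAAG match is shared by members that fell and members that did not, and Phf5a could not be read.

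Other spliceosome genes give the setting of these changes. Of 86 genes in 6 lists, 26 were called in double against control (30.2%, 7 higher and 19 lower), 18 in inv(3) against control (20.9%), 32 in double against Sf3b1 K700E (37.2%) and 2 in Sf3b1 K700E against control (2.33%). Over all tested genes the shares were 41.1%, 38.7%, 49.2% and 8.84% in the same order, each above that of the lists. The list named U2 core here holds the Sm ring, U2A and U2B proteins, and the Sm ring is not particular to U2. Of these genes 6 of 9 were lower in double than in control and 7 of 9 lower than in Sf3b1 K700E. In either comparison 0 were higher. Over all tested genes 20.4% and 23.5% were lower. Their median log2 change was -0.15 and -0.17, against 0.00 and 0.03 over all tested genes. Snrpe, an Sm ring protein, had 71.2, 75.8 and 72.2 CPM in double and 85.0, 90.7 and 88.9 CPM in Sf3b1 K700E, a fall of 0.27 (SE 0.05, edgeR adjusted p = 0.000558). The count of 6 against control was 1 without double 1 or double 3, 2 without control 1 or Sf3b1 K700E 2, and 3 without control 3, inv(3) 1, inv(3) 3 or Sf3b1 K700E 3. It was also 2 without the low-count filter and 3 with the compared groups alone. The proliferation markers given above fell in the same comparisons, and their part was not tested. The count of 7 was 4 without double 1, double 3 or Sf3b1 K700E 2.

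Of 25 U5 and U4/U6 proteins, 8 were lower and 0 higher in double than in control, where 20.4% of all tested genes were lower and 20.8% higher. Lsm6, of the ring that binds U6 RNA, had 60.8, 67.2 and 61.5 CPM in double, 73.6, 73.6 and 73.8 in inv(3), 82.9, 88.5 and 91.2 in Sf3b1 K700E and 99.9, 89.8 and 88.3 in control. The double libraries were the lowest and the inv(3) libraries came next, without overlap. Lsm6 fell by 0.55 in double against control (SE 0.06, edgeR adjusted p = 1.48e-05). The count of 8 was 5 without double 3. Luc7l, a U1 snRNP protein, rose instead: 185, 169 and 177 CPM in double and 173, 174 and 170.3 in Sf3b1 K700E, against 149, 146 and 134 in control. It was 1 of the 2 spliceosome genes called in Sf3b1 K700E against control (0.27 ± 0.05, edgeR adjusted p = 0.00929). The other was Prpf4, of U4/U6 (0.15 ± 0.03, edgeR adjusted p = 0.0216). Its call ended with the compared groups alone (0.0506) and without control 1 (0.0543), control 2 (0.103) or Sf3b1 K700E 2 (0.0806).

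**Figure D4:**
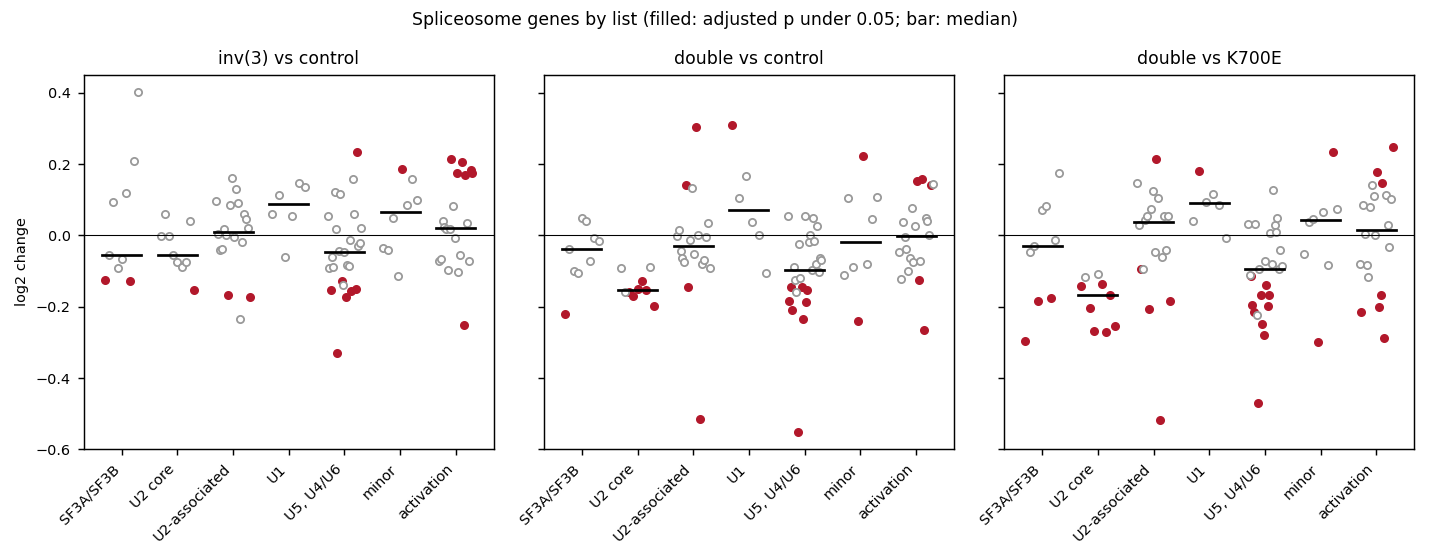
Log2 change (vertical axis) of each gene in the SF3A/SF3B set and 6 other spliceosome lists in 3 comparisons, filled where the adjusted p was under 0.05, with bars at each list's median. In double against control the median of the U2 core list (Sm ring, U2A and U2B proteins) is at -0.15 and the SF3A/SF3B median at -0.04.

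The profile of Sf3b1 over the 12 libraries was most like that of Thoc2, a subunit of the mRNA export complex THO, by root mean square difference of centred log2 CPM (0.025, against a median of 0.158 over 10387 genes). Kdm5a, Spin1, Dnm1l and Usp34 followed at 0.0318 to 0.0322. Among the other subunits the difference from Sf3b1 was 0.105 for Sf3a1, 0.106 for Sf3a3, 0.107 for Sf3b3, 0.129 for Sf3b2 and 0.147 for Phf5a. These lie below the median of 0.158, and Sf3a2 (0.228), Sf3b4 (0.247) and Sf3b5 (0.397) lie above it. Thoc2 was picked as the nearest of 10387 genes, so its value cannot be set against those of the few subunits. The mean profile of the 9 was most like that of Letm1 (0.0263), Ctdp1, Eif4h, Fam104a and Kdm2b (0.029), against a median of 0.15. The libraries share depth and GC differences, so these values describe likeness across these libraries alone. Mecom, the mouse counterpart of EVI1, had 10.3, 8.98 and 11.2 CPM in double against 5.86, 3.65 and 4.24 in inv(3). The difference was 1.15 ± 0.20 (edgeR adjusted p = 0.00313). Sf3b1 K700E had 7.12, 10.985 and 7.32 CPM, and double did not pass against it (0.26 ± 0.19, edgeR adjusted p = 0.281). Control had 5.49, 6.59 and 6.37 CPM. Double was higher than control (0.72 ± 0.20, edgeR adjusted p = 0.0114), though it did not pass with an effective-length offset (0.47, adjusted p = 0.0618). Sf3b1 K700E against control did not pass (0.46 ± 0.20, edgeR adjusted p = 0.162). Mecom was not higher in inv(3) than in control (-0.42 ± 0.20, edgeR adjusted p = 0.112). It was lower in inv(3) with an effective-length offset (-0.67, adjusted p = 0.0159) and without inv(3) 1 (-0.64, adjusted p = 0.0227). Whether RNA from the EVI1 of the inv(3) allele is counted as Mecom was not tested. Mecom RNA therefore gives no check of that allele's label.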

How the data were processed

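Per the labels, poly(A) RNA was sequenced from unstranded TruSeq libraries. The submitters' processing notes name bcl2fastq and mm10, with no aligner and no version of the counting program. Per the file headers, the deposited tables hold expected counts (not normalized), TPM and effective length in bases, the columns of RSEM. Expected counts were rounded, filtered with filterByExpr by group (13755 of 24411 genes kept) and scaled by TMM. One quasi-likelihood model of the 4 groups was fitted (edgeR 4.0.16 under R 4.3.3). P-values are two-sided, adjusted by Benjamini-Hochberg over all tested genes, with 0.05 as the limit. Intervals cover 95%. TPM, deposited by the authors, was used for levels only. A planned test of effective length was not possible, because each of the 9 members lists 1 transcript. Alternatives used DESeq2 1.42.0, limma 3.58.1 and those in the closing section, and the code was tested on simulated data. Members and lists were chosen with earlier results of these data known. Named genes are the 9, Mecom, up to 3 called genes of a list by smallest p and 5 genes of most like profile (mean of at least 2 CPM). Coding GC was known for 94.8% of tested genes and all 9 members (GENCODE). Correlations between replicates were 0.986 to 0.996 in log2 CPM.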

Additional observations from a re-analysis of the deposited data

How the results depend on the processing

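The settings were DESeq2, limma-voom, RLE scaling, a minimum mean of 5 CPM, dropping the low-count filter, the compared groups alone, the replicate block, an effective-length offset, the 100 most abundant genes left out, each library left out in turn and, chosen after seeing the data, a GC offset. Over 22 settings, 1141 of 1179 values of single members kept their side of the limit, 21 lost a call, 17 gained one and 0 called values turned sign. Most of the 1179 were uncalled in the main fit, and 42 uncalled values turned sign. All 21 lost calls were in inv(3) against control. Phf5a in double against control, and Phf5a, Sf3b3 and Sf3a3 in double against Sf3b1 K700E, were called in 22 of 22. Sf3b3 in inv(3) against control was called in 14 and Phf5a in 9.

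Members called in inv(3) against control were 1 without the low-count filter, 0 with the compared groups alone, 0 under the replicate block (adjusted p of 0.0541 for Sf3b3 and 0.0734 for Phf5a), and 0 to 3 with a library left out. In Sf3b1 K700E against control DESeq2 called 1, and leaving out a library gave 0. Double against control gave 2 by DESeq2, 3 with the GC offset and 1 to 2 with a library left out. Double against inv(3) gave 1 with the GC offset and 0 to 1 with a library left out, and double against Sf3b1 K700E gave 6 and 3 to 4. The cause was not tested. Over all genes, Sf3b1 K700E against control had 1216 calls, 168 without Sf3b1 K700E 2 and 1866 by DESeq2, and the interaction had 115, 32 without control 2 and 622 by DESeq2.

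The replicate numbers did not pair the libraries: deviations of same-numbered libraries correlated at -0.379 to 0.27, with 3 of 18 pairs over 0.1, and 2 of 12 libraries correlated best with their own number. Under the replicate block the count of U2 core genes lower in double than in control was 2, and Prpf4 in Sf3b1 K700E against control had an adjusted p of 0.0578. A test of isoform use from effective length was not run, since each member lists 1 transcript (the offset above is a separate setting). With 3 libraries a group, differences as large as 0.12 for Sf3b2 (SE 0.05) and 0.40 for Sf3b5 (SE 0.24) did not pass in inv(3) against control.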
